A study of Mus musculus with 14 samples.

Results

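RNA of 8 protein-coding genes was the most raised in hearts of Clk3 knockout mice after sham surgery: Ddx4, Gm15737, Olfr1034, Armh4, D3Ertd751e, Fam81a, Dync2h1 and Zfp871. They were picked by measured values, as the largest rises in knockout over wild-type sham hearts among protein-coding genes that passed the test in that comparison, that averaged at least 1 CPM (gene counts scaled by library size with TMM factors) in knockout sham hearts and whose knockout and wild-type libraries did not overlap. The tables held 51912 genes, of which 15651 had enough counts to be tested, and all 8 genes were among these. Hearts of C57BL/6J mice were profiled by RNA sequencing in 14 libraries: 4 of Clk3 knockout sham hearts, 4 of wild-type sham hearts, 4 of Clk3 knockout hearts after TAC and 2 of wild-type hearts after TAC. TAC, transverse aortic constriction, narrows the aorta and loads the left ventricle with pressure. Mice were 11 weeks old in 2 libraries of each sham group, those numbered 1 and 2, and 10 weeks old in the other 10 libraries. The labels name the knocked-out gene but neither the allele, the sex nor the duration of TAC, and nothing in them ties a library to an animal of its own. The p-values below therefore rest on the spread between the samples as labelled, part of which may be technical.

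Clk3 is a kinase of the CDC2-like family, which phosphorylates the serine- and arginine-rich proteins that take part in splicing. The 8 genes were picked for their levels, not for a shared pathway. Ddx4, also called Vasa, is an RNA helicase of germ cells that works with the piRNA machinery against transposons. Olfr1034 is a member of the olfactory receptors, the G protein-coupled receptors of smell. Dync2h1 is the heavy chain of dynein-2, the motor that carries cargo back from the tip of the cilium. Zfp871 is a zinc finger protein, a class that includes many DNA-binding repressors. Armh4 is named for an armadillo-like helical domain, Fam81a for a protein family, and Gm15737 and D3Ertd751e carry placeholder names.

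The labels were checked first. Libraries held between 11385818 and 20369637 gene counts. Clk3 was measured at 62.7 to 67.3 CPM in knockout sham hearts, against 73.1 to 95.9 CPM in wild-type sham hearts. It was at 50.7 to 64.9 CPM in knockout TAC hearts, against 54.1 and 92.2 CPM in the libraries labelled wild-type TAC 1 and 2. The libraries labelled knockout were thus 1.30-fold lower in sham hearts and 1.27-fold lower after TAC, and neither difference passed the edgeR test (adjusted p = 0.158 and 0.350). For Clk3 after TAC the log2 fold change was -0.67 without the library labelled wild-type TAC 1 (edgeR adjusted p = 0.0717). Counts in the coding part of Clk3, unscaled, were 582 to 675 in knockout sham and 650 to 1338 in wild-type sham libraries as labelled. Depth differed, at 13334635 to 14733656 gene counts in knockout sham and 12836936 to 20369637 in wild-type sham libraries, so these ranges are not directly comparable. The deleted part of the gene is not given in the sources used here, and the groups below are called knockout and wild type as labelled. Gm8730, a processed pseudogene, stood at 57.3 to 67.1 CPM in all 8 knockout libraries, at 66.8 CPM in the one labelled wild-type TAC 1, and between 1.26 and 1.63 CPM in the remaining 5. The library labelled wild-type TAC 1 thus resembled the knockout libraries in these genes, Clk3 and Gm8730. Among the 8 genes it lay inside the knockout TAC range for 4 and outside it for the others. Its 6 fibroblast markers summed to 2203 CPM, against 1160 to 1377 CPM in knockout TAC libraries and 1806 CPM in wild-type TAC 2. The differences of the 8 genes between genotypes after TAC are also given without this library. The markers of ventricular muscle were abundant (Myh6 at 9535 CPM or more in every library), whereas 3 atrial markers together reached 2.05 to 5.05 CPM, most of it Myl4 at 1.89 to 4.78 CPM, with Myl7 at 1.01 CPM or less and Sln at 0.546 CPM or less. Of the 3 skeletal muscle markers, Mylpf was at 1.07 to 2.11 CPM, Actn3 at 0.307 CPM or less and Myh4 at 0 in all 14 libraries. The 3 lung epithelial markers together reached 0.0923 CPM or less.

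The 8 genes lie on 7 chromosomes, as annotated in GENCODE M21 on GRCm38. Ddx4 runs from chr13:112598333-112652475 on the minus strand, Gm15737 from chr6:92869357-92884411 on the plus strand and Olfr1034 from chr2:86045861-86050742 on the plus strand. Armh4 spans chr14:49675952-49783383 on the minus strand and D3Ertd751e spans chr3:41742611-41803320 on the plus strand. Zfp871 lies at chr17:32765496-32788287 on the minus strand. Fam81a (chr9:70088511-70142560) and Dync2h1 (chr9:6928503-7184446), both on the minus strand, share chromosome 9 with Clk3 (chr9:57750624-57765860, minus strand). They are 12.3 Mb and 50.6 Mb away from it. Gm15737 lies inside the gene Adamts9, on the opposite strand, and Olfr1034 begins 690 bases after the end of Olfr1033, on the same strand. Olfr1034 also overlaps the pseudogene Olfr1035-ps1 on the opposite strand. No counts of any of the 8 genes were marked ambiguous in any library.

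For 3 of the 8 genes (37.5%) another annotated gene started within 1000 bases on the opposite strand, facing away, against 14.2% of the 15622 tested genes with a position. D3Ertd751e and Sclt1, a gene for a centriole protein, start with 96 bases between them, Dync2h1 and Dcun1d5 with 73, and Zfp871 and the noncoding gene Gm17115 with 106. The RefSeq windows from 250 bases before to 50 after the start (GRCm38.p6) are shown for D3Ertd751e and Zfp871, because there the members' levels can be set beside those of a gene that starts from the same short stretch. Each sequence reads 5′ to 3′ on the strand of the named gene, and the capitals mark the bases between the 2 annotated gene starts. The first window is chr3:41742365-41742664 on the plus strand and the second is chr17:32788238-32788537 on the minus strand.
D3Ertd751e: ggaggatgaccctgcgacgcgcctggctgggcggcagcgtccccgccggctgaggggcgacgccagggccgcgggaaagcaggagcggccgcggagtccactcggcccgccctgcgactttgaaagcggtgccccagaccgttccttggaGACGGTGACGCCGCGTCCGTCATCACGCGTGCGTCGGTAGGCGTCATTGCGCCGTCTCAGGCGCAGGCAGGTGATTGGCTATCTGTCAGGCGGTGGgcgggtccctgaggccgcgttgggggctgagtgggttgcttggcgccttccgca
Zfp871: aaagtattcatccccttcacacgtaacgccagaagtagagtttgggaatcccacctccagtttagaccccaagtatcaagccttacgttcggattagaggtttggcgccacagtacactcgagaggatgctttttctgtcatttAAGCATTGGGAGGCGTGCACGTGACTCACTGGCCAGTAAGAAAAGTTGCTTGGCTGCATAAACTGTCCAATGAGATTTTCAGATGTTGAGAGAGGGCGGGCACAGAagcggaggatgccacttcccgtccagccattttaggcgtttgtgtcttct

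The windows of the 8 genes were searched on both strands for 4 motifs. TATAAA was found in 1, that of Olfr1034, against 13.6% of the 32851 RefSeq windows of the same length. CACGTG was found in 2, those of Ddx4 and Zfp871, against 7.15% of all windows, and TGACGTCA in 0, against 1.79%. CCAAT was found in 5, those of Ddx4, Armh4, D3Ertd751e, Dync2h1 and Zfp871, against 37.4%. The share of G and C ranged from 24.7% in the window of Olfr1034 to 72.0% in that of Ddx4, with 71.3% for D3Ertd751e and 49.0% for Zfp871. The median over all windows was 52.7%. The RefSeq start was not the GENCODE start in every case. It lay 7388 bases away for Dync2h1, 1003 bases for Fam81a and 583 bases for Olfr1034.

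The sham comparison chose the genes, so its values are a description and carry no test. Fold changes in sham hearts ran from 2.69 for Ddx4 and 2.56 for Gm15737 through 2.19 for Olfr1034, 1.99 for Armh4, 1.76 for D3Ertd751e, 1.75 for Fam81a and 1.67 for Dync2h1 to 1.65 for Zfp871. Over all tested genes, 0.575% were called higher in knockout sham hearts (adjusted p under 0.05, edgeR quasi-likelihood test), and for 6.37% all 4 knockout sham libraries lay above all 4 wild-type sham libraries. Zfp871 was the last gene inside the choice, with a log2 fold change of 0.72. The next in rank was Dzip3, also at 0.72, which averaged 22.6 CPM in knockout and 13.7 CPM in wild-type sham hearts. The lowest knockout sham library exceeded the highest wild-type sham library by 1.66-fold for Armh4 and Olfr1034, 1.55-fold for Ddx4 and 1.42-fold for Gm15737. That margin was 1.31-fold for D3Ertd751e, 1.26-fold for Zfp871, 1.23-fold for Fam81a and 1.17-fold for Dync2h1. With the 10-week libraries alone, 2 per sham group, edgeR called 0 genes in sham hearts and 1745 genes had an unadjusted p under 0.05.

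Per kilobase of exon, D3Ertd751e was the most abundant of the 8 in sham hearts, at 10.7 ± 0.528 CPM per kb in knockout and 6.10 ± 1.30 in wild type (SD, n = 4 each). Fam81a had 4.54 ± 0.951 CPM per kb in knockout and 2.61 ± 0.366 in wild-type sham hearts, and Armh4 had 3.71 ± 0.581 in knockout and 1.86 ± 0.064 in wild-type sham hearts. Zfp871 followed at 2.12 ± 0.217 CPM per kb in knockout and 1.28 ± 0.126 in wild-type sham hearts. The other 4 were scarcer. Olfr1034 had 1.12 ± 0.077 CPM per kb in knockout sham hearts, Dync2h1 0.792 ± 0.101, Ddx4 0.535 ± 0.146 and Gm15737 0.444 ± 0.088. Fam81a and Armh4, and likewise Ddx4 and Gm15737, did not differ beyond their spread in knockout sham hearts. The order of the 8 genes by mean was the same in wild-type sham hearts.

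**Figure D1:**
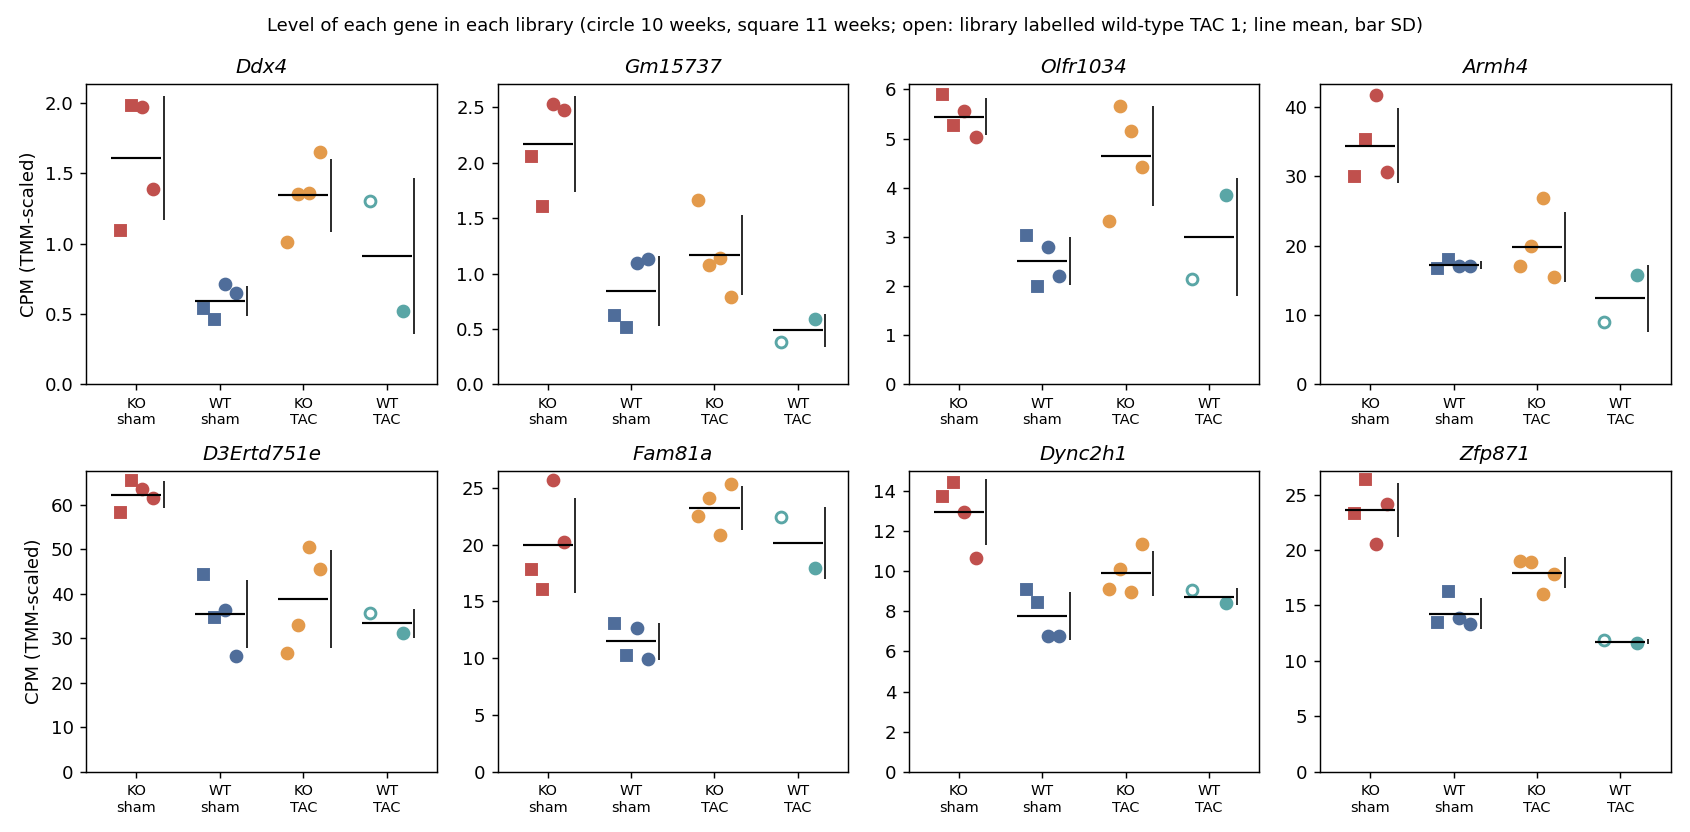
Level of each gene in every library, in TMM-scaled CPM on a linear axis that starts at 0, by group (KO, knockout; WT, wild type). Each point is 1 library, squares are 11 weeks old and circles 10 weeks, the open circle is the library labelled wild-type TAC 1, horizontal lines are means and vertical bars SD. In sham hearts the knockout points lie above all wild-type points in every panel, a condition of the choice. After TAC this holds for Gm15737 and Zfp871.

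After TAC, where levels did not enter the choice, the estimated difference reached the threshold for 1 of the 8, Zfp871. The test is not free of the choice, since its spread is estimated over all 14 libraries, including the sham libraries that chose the genes. With only the TAC libraries fitted, 0 of the 8 passed (edgeR adjusted p = 0.106 for Zfp871), against 60 genes over the whole table. The estimate from all 14 libraries was smaller than in sham hearts for every gene, a change that was not tested. The genes were chosen as the largest sham rises, which by itself favours smaller values in libraries outside the choice. The question was whether the knockout libraries also stood higher under pressure load. All 8 log2 fold changes were above 0, as were those of 50.4% of all tested genes, and their median was 0.59 against 0.00 over all genes. Zfp871 was called higher in knockout TAC hearts, where the share of all tested genes called higher was 0.377%, or 59 genes, and 1.48% were called in either direction. At an unadjusted p under 0.05, 4 of the 8 were higher (Gm15737, Olfr1034, Armh4 and Zfp871), against 6.52% of all genes. All 4 knockout TAC libraries lay above both wild-type TAC libraries for 2 of the 8, against 11.0% of all genes. Set against wild-type TAC 2 alone, all 4 knockout TAC libraries were higher for 5 of the 8 (27.0% of all genes), and against the library labelled wild-type TAC 1 alone for 4 of the 8 (28.4%). Without the library labelled wild-type TAC 1, 0 of the 8 passed in edgeR, against 0.0309% of all genes called higher. In that fit 2 of the 8 (Ddx4 and Zfp871) had an unadjusted p under 0.05, against 12.4% of all genes in either direction. Without wild-type TAC 2, Armh4 alone passed, against 0.691% of all genes called higher. With 4 libraries against 2 there are 15 arrangements, so an exact two-sided permutation test of 1 gene cannot give a p below 0.0667.

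Zfp871, the zinc finger gene, held its difference after TAC at nearly the size seen in sham hearts. It was at 23.3, 26.4, 20.5 and 24.2 CPM in knockout sham libraries 1 to 4. In wild-type sham libraries 1 to 4 it was at 13.5, 16.3, 13.8 and 13.4 CPM. It was at 19.0, 18.9, 16.1 and 17.9 CPM in knockout TAC hearts, against 11.9 and 11.6 CPM in the libraries labelled wild-type TAC 1 and 2. In sham hearts the lack of overlap was a condition of the choice. After TAC all 4 knockout libraries lay above both wild-type libraries, as for 11.0% of all genes, and the wild-type TAC libraries stood close together. The fold change after TAC was 1.53 (log2 0.61 ± 0.13, SE), with an adjusted p of 0.0258 in edgeR's quasi-likelihood test and an exact permutation p of 0.0667. Without the library labelled wild-type TAC 1 the log2 fold change was 0.63 and the adjusted p 0.163. Without wild-type TAC 2 it was 0.59 with an adjusted p of 0.0859. Over all alternatives the adjusted p ran from 0.0034, with DESeq2, to 0.163, and the log2 fold change from 0.58 to 0.66. The share of its counts in untranslated parts was 65.4% ± 2.19 in knockout TAC (n = 4) and 65.4% ± 5.75 in wild-type TAC hearts (n = 2).

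Gm15737, a predicted gene, had the largest fold change of the 8 after TAC, 2.32, on few counts and without passing the test. It was at 2.06, 1.61, 2.53 and 2.48 CPM in knockout sham hearts, against 0.624, 0.514, 1.09 and 1.13 CPM in wild-type sham hearts. After TAC it was at 1.66, 1.08, 1.14 and 0.792 CPM in knockout hearts, against 0.383 and 0.592 CPM in the wild-type libraries. Knockout libraries were the higher ones after TAC too, with no overlap, which in sham hearts was a condition of the choice. These levels rest on 12 to 21 counts per knockout TAC library and on 5 and 8 counts in the wild-type TAC libraries. The log2 fold change after TAC was 1.21 ± 0.45 (SE), which did not pass the threshold (edgeR adjusted p = 0.210, exact permutation p = 0.133). It was 0.94 without the library labelled wild-type TAC 1 and 1.56 without wild-type TAC 2. Adamts9, the metalloprotease gene on the other strand in which Gm15737 lies, averaged 51.2 CPM in knockout and 46.1 CPM in wild-type TAC hearts (log2 fold change 0.15, edgeR adjusted p = 0.79, and 0.12 without the library labelled wild-type TAC 1).

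Ddx4, the germ-cell helicase, differed widely in its contrast with the 2 wild-type TAC libraries. It was at 1.10, 1.99, 1.97 and 1.39 CPM in knockout sham hearts, against 0.546, 0.467, 0.711 and 0.646 CPM in wild-type sham hearts. After TAC it was at 1.01, 1.35, 1.36 and 1.65 CPM in knockout hearts, against 1.30 CPM for the library labelled wild-type TAC 1 and 0.518 CPM in wild-type TAC 2. The library labelled wild-type TAC 1 lay inside the knockout TAC range and above every wild-type sham library, whereas wild-type TAC 2 lay below all knockout libraries. The log2 fold change after TAC was 0.58 ± 0.38 (SE), with an edgeR adjusted p of 0.516 and an exact permutation p of 0.267. It was 1.38 without the library labelled wild-type TAC 1, close to the 1.43 ± 0.30 of sham hearts, and 0.06 without wild-type TAC 2. Neither passed the threshold, and over all alternatives the adjusted p ran from 0.278 to 0.969. Ddx4 had 11 to 25 counts per knockout TAC library, against 17 and 7 counts in the wild-type TAC libraries.

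Olfr1034 stood higher in all knockout sham libraries, at 5.91, 5.28, 5.56 and 5.04 CPM, against 3.04, 2.01, 2.79 and 2.21 CPM in wild-type sham hearts. In knockout TAC hearts this olfactory receptor was at 3.32, 5.67, 5.16 and 4.42 CPM, against 2.15 and 3.85 CPM in the libraries labelled wild-type TAC 1 and 2. Knockout TAC 1 fell below wild-type TAC 2, so the groups overlapped, while the library labelled wild-type TAC 1 lay in the range of the wild-type sham libraries. The log2 fold change after TAC was 0.64 ± 0.26 (SE, edgeR adjusted p = 0.256, exact permutation p = 0.2). It was 0.28 without the library labelled wild-type TAC 1 and 1.12 without wild-type TAC 2. Its upstream neighbour Olfr1033 averaged 37.5 CPM in knockout and 28.7 CPM in wild-type sham hearts, and 40.3 CPM in knockout and 33.5 CPM in wild-type TAC hearts (log2 fold change 0.27, edgeR adjusted p = 0.61, and 0.12 without the library labelled wild-type TAC 1). Whether reads from Olfr1033 reach Olfr1034 was not tested, and since olfactory receptor genes resemble each other its counts are uncertain.

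Armh4 passed or missed the test after TAC according to which wild-type library was kept. It was at 30.0, 35.3, 41.7 and 30.6 CPM in knockout sham libraries, against 16.8 to 18.1 CPM in the 4 wild-type sham libraries. After TAC it was at 17.1, 19.9, 26.9 and 15.4 CPM in knockout hearts, against 8.97 CPM for the library labelled wild-type TAC 1 and 15.8 CPM in wild-type TAC 2. Knockout TAC 4 lay just below wild-type TAC 2, and the library labelled wild-type TAC 1 was the lowest of all 14. The log2 fold change after TAC was 0.68 ± 0.23 (SE, edgeR adjusted p = 0.162, exact permutation p = 0.2). Without wild-type TAC 2 it was 1.15 and passed the threshold (adjusted p = 0.0412), and without the library labelled wild-type TAC 1 it was 0.33 (adjusted p = 0.615). Over all alternatives the adjusted p ran from 0.0237 to 0.615.

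For D3Ertd751e, Fam81a and Dync2h1 the genotype groups overlapped after TAC. D3Ertd751e was at 58.4 to 65.6 CPM in knockout sham hearts, against 26.1 to 44.4 CPM in wild-type sham hearts. After TAC its levels were 26.7, 32.9, 50.5 and 45.6 CPM in knockout hearts, against 35.6 and 31.1 CPM in the libraries labelled wild-type TAC 1 and 2. The 4 knockout TAC libraries lay on both sides of the wild-type ones, and the log2 fold change was 0.23 ± 0.22 (SE, edgeR adjusted p = 0.685, exact permutation p = 0.6).

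Fam81a was at 17.9, 16.1, 25.7 and 20.2 CPM in knockout sham hearts, against 13.1, 10.3, 12.6 and 9.91 CPM in wild-type sham hearts. It was at 22.5, 24.1, 20.8 and 25.3 CPM in knockout TAC hearts, against 22.4 and 17.9 CPM in the libraries labelled wild-type TAC 1 and 2. Every TAC library was above every wild-type sham library, whichever its genotype. The log2 fold change between genotypes after TAC was 0.20 ± 0.17 (SE, edgeR adjusted p = 0.638, exact permutation p = 0.2).

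Dync2h1, the ciliary motor subunit, was at 10.7 to 14.5 CPM in knockout sham hearts, against 6.78 to 9.12 CPM in wild-type sham hearts. It was at 9.13, 10.1, 8.96 and 11.3 CPM in knockout TAC hearts, against 9.05 and 8.44 CPM in the libraries labelled wild-type TAC 1 and 2. Wild-type TAC 2 was below all knockout TAC libraries, and the library labelled wild-type TAC 1 lay above the lowest of them. The log2 fold change after TAC was 0.18 ± 0.16 (SE, edgeR adjusted p = 0.674, exact permutation p = 0.2). Without the library labelled wild-type TAC 1 the log2 fold changes of D3Ertd751e, Fam81a and Dync2h1 were 0.33, 0.37 and 0.23. Without wild-type TAC 2 they were 0.13, 0.05 and 0.13, and none of these 6 values passed the threshold. The 3 estimates with both libraries were smaller than those of sham hearts, 0.82 ± 0.17, 0.80 ± 0.14 and 0.74 ± 0.13 (SE). That change was not tested because the sham libraries chose the genes, which by itself favours larger sham values.

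**Figure D2:**
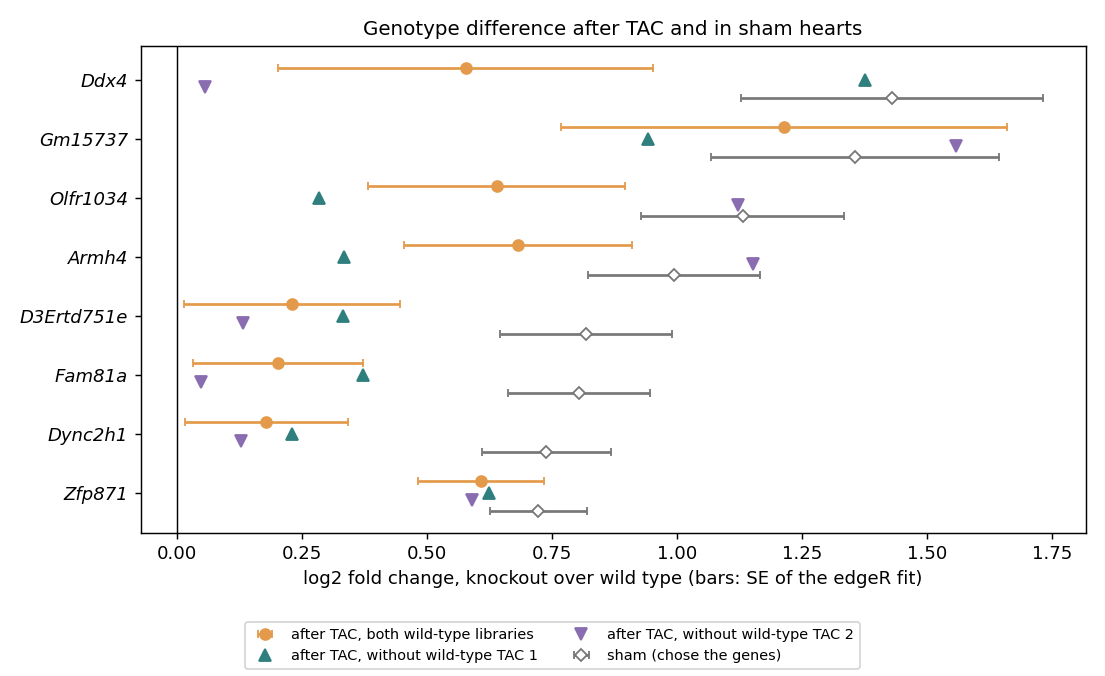
Log2 fold change of knockout over wild type for each gene after TAC (circles, with both wild-type libraries; triangles, with 1 of them left out) and in sham hearts (open diamonds, which chose the genes). Bars are SE of the edgeR fit. Zfp871 keeps 0.59 to 0.63 whichever wild-type TAC library is left out, whereas Ddx4 moves between 0.06 and 1.38.

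Between TAC and sham hearts, with the genotypes averaged, 4 of the 8 genes changed. The sham difference in mean level between genotypes, which chose the genes, cancels in this average. The choice also asked for a passed test and no overlap in sham hearts, which favours a small spread among those libraries. That spread enters the p-values below and does not cancel. The floor of 1 CPM in knockout sham hearts does not cancel, and Ddx4 (1.61 CPM) and Gm15737 (2.17 CPM) lay nearest to it there. Fam81a rose and Gm15737, Armh4 and Zfp871 fell, against a background of 27.3% of tested genes called, 14.2% higher and 13.1% lower. Fam81a rose by 0.52 ± 0.11 on the log2 scale (SE, edgeR adjusted p = 0.00292). Gm15737 changed by -0.85 ± 0.27 (adjusted p = 0.0267), Armh4 by -0.63 ± 0.14 (adjusted p = 0.00449) and Zfp871 by -0.34 ± 0.08 (adjusted p = 0.00545) in the same edgeR fit. All TAC libraries were 10 weeks old, as were 2 of the 4 libraries of each sham group, and with the 10-week libraries alone Zfp871 lost its call (-0.27, edgeR adjusted p = 0.0763). D3Ertd751e, at -0.38 ± 0.14, missed the threshold (edgeR adjusted p = 0.0536) but passed under 6 of 21 alternatives, namely DESeq2 (0.0293), no filter on low counts (0.00587), coding-part counts (0.0356) and without wild-type sham 4 (0.0184), knockout TAC 3 (0.0156) or knockout TAC 4 (0.0437). Ddx4 (0.18 ± 0.24), Olfr1034 (0.03 ± 0.16) and Dync2h1 (-0.11 ± 0.10) also did not pass. Without the library labelled wild-type TAC 1, Gm15737 lost its call (log2 fold change -0.71, edgeR adjusted p = 0.147), and it did so without wild-type sham 3 or 4 as well (0.0530 and 0.0510). Fam81a, Armh4 and Zfp871 passed without that TAC library too, at 0.43, -0.45 and -0.35.

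Markers of other heart cells were also read for TAC against sham, where 14.2% of all tested genes were called higher and 13.1% lower. In the same edgeR test all 4 macrophage markers, 4 of 6 fibroblast, 2 of 5 endothelial, 2 of 3 erythroid and 1 of 3 B cell markers rose, and both tested Schwann cell markers fell, while 1 of 6 cardiomyocyte markers rose and 1 fell. Summed fibroblast markers were at 1160 to 1377 CPM in knockout TAC and 1806 to 2203 CPM in wild-type TAC hearts, against 913 to 1025 CPM in knockout sham and 926 to 1245 CPM in wild-type sham hearts. Their part in the levels of the 8 genes was not tested.

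The share of reads outside annotated features moved with these groups. It was 13.3% ± 0.870 in knockout TAC (SD, n = 4) and 10.7% and 14.9% in the wild-type TAC libraries, against 18.0% ± 0.833 in knockout sham and 15.8% ± 1.37 in wild-type sham hearts (n = 4 each). Knockout sham libraries had 17.1% to 19.0% and wild-type sham libraries 14.3% to 17.6%, so those ranges overlapped. With that share as a covariate, a setting chosen after seeing the data, 0 of the 8 genes passed the edgeR test for TAC against sham (1 at an unadjusted p under 0.05), and 260 of all genes did, against 4274 without it. With it, the log2 fold changes of knockout over wild type ranged from 0.15 to 1.24 after TAC, where Zfp871 alone passed, and from 0.62 to 1.83 in sham hearts.

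Within each genotype the values are given side by side, with no test, since they share the sham libraries that chose the genes. The choice favours high knockout sham and low wild-type sham levels. That by itself lowers TAC over sham in knockout hearts and raises it in wild-type hearts. TAC over sham was 0.22 (log2) in knockout and 0.82 in wild-type hearts for Fam81a, so the level of this gene after TAC was near that of knockout sham hearts in both genotypes. For D3Ertd751e it was -0.67 in knockout and -0.08 in wild-type hearts, and for Dync2h1 it was -0.39 in knockout and 0.17 in wild-type hearts. Ddx4 stood at -0.24 in knockout and 0.61 in wild-type hearts, and Olfr1034 at -0.22 in knockout and 0.27 in wild-type hearts. Gm15737 was at -0.92 in knockout and -0.78 in wild-type hearts. Armh4 was at -0.79 in knockout and -0.47 in wild-type hearts, and Zfp871 at -0.40 in knockout and -0.28 in wild-type hearts. The wild-type values rest on 2 TAC libraries. With wild-type TAC 2 alone, Ddx4 turned to -0.19 in wild-type hearts, and Armh4 shrank to -0.12. Olfr1034 was then at 0.63 in wild-type hearts, Fam81a at 0.65, Gm15737 at -0.51, D3Ertd751e at -0.18, Dync2h1 at 0.12 and Zfp871 at -0.30.

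**Figure D3:**
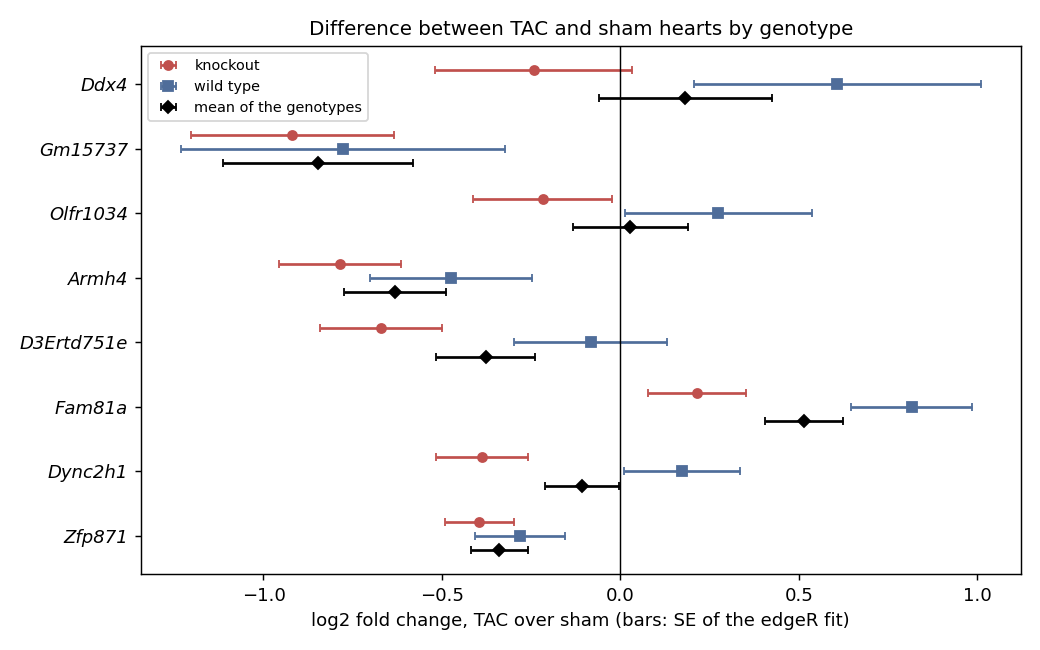
Log2 fold change of TAC over sham for each gene in knockout hearts (circles), in wild-type hearts (squares) and averaged over the genotypes (diamonds), with SE of the edgeR fit as bars. Gm15737, Armh4, D3Ertd751e and Zfp871 lie below 0 in both genotypes, Fam81a lies above 0 in both, and Ddx4, Olfr1034 and Dync2h1 lie below 0 in knockout and above 0 in wild-type hearts. The wild-type values include the library labelled wild-type TAC 1, without which Ddx4 stands at -0.19 in wild-type hearts.

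The genes near the 8 were measured for the same contrast. Within 500 kb lay 47 other tested genes, of which 0 passed the edgeR test after TAC (1.48% of all genes did) and 0 did with DESeq2 (3.05% of all genes), while 3 had an unadjusted p under 0.05 (14.8% of all genes). Without the library labelled wild-type TAC 1, 0 passed in edgeR (0.284% of all genes) and 7 had an unadjusted p under 0.05 (12.4% of all genes). With so few genes called over the whole table, a count of 0 calls among 47 is near the background. Their median log2 fold change was 0.07 after TAC and 0.08 in sham hearts. After TAC they ranged from -1.12 (Morc2b) to 1.09 (Gm37268, inside D3Ertd751e on the same strand), both on scarce RNA. Morc2b averaged 0.13 CPM in knockout and 0.30 CPM in wild-type TAC hearts, and Gm37268 averaged 0.42 CPM in knockout and 0.19 CPM in wild-type TAC hearts. Sclt1, beside D3Ertd751e, averaged 21.3 CPM in knockout and 19.5 CPM in wild-type TAC hearts (log2 fold change 0.13, edgeR adjusted p = 0.751). In sham hearts it averaged 23.9 CPM in knockout and 19.9 CPM in wild type (log2 fold change 0.28, against 0.82 for D3Ertd751e). Dcun1d5, a neddylation gene beside Dync2h1, averaged 79.9 CPM in knockout and 78.5 CPM in wild-type TAC hearts (log2 fold change 0.03, adjusted p = 0.953). Gm17115, beside Zfp871, was at a log2 fold change of -0.55 after TAC (adjusted p = 0.493), on averages of 0.78 CPM in knockout and 1.14 CPM in wild-type hearts. Slc38a9, the tested gene nearest to Ddx4 at 8276 bases, was at 0.07 (adjusted p = 0.87). Against wild-type TAC 2 alone the log2 fold changes after TAC were 0.27 for Sclt1, 0.10 for Dcun1d5, 0.05 for Gm17115 and -0.12 for Slc38a9, and those of Morc2b and Gm37268 were -1.09 and 0.45.

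**Figure D4:**
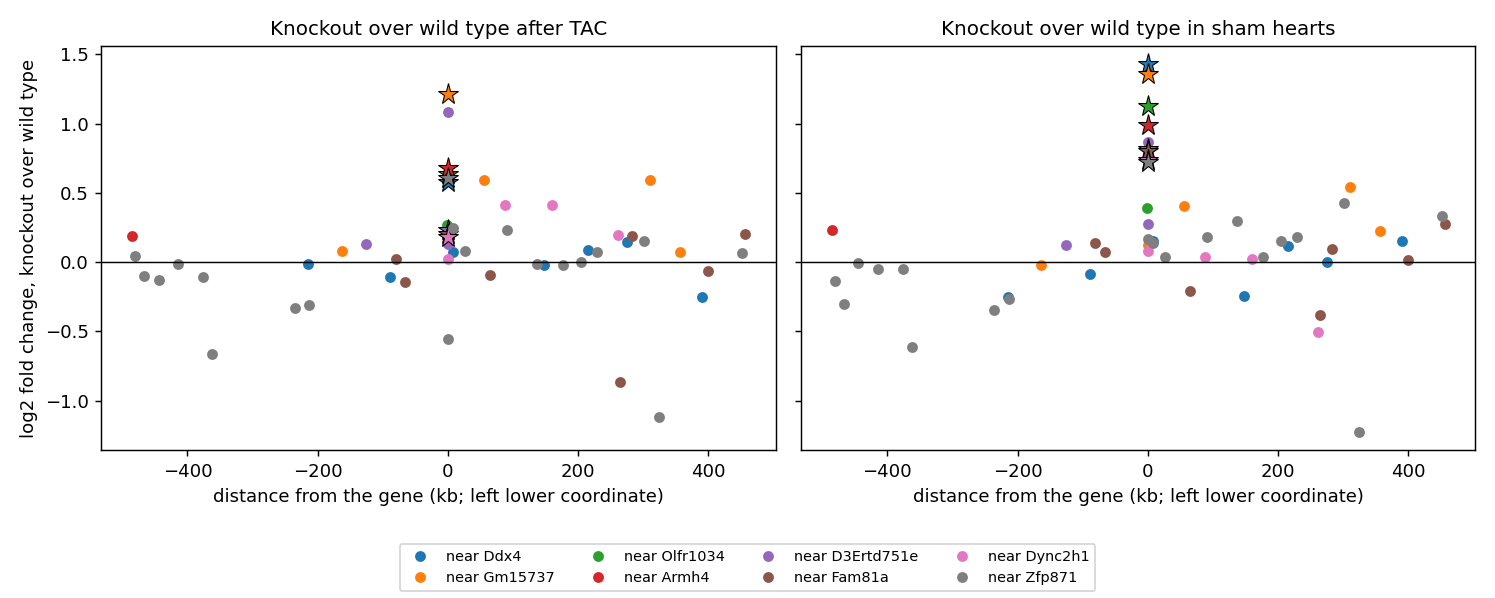
Log2 fold change of knockout over wild type after TAC (left) and in sham hearts (right) for the 47 tested genes within 500 kb of the 8 genes, against distance in kb. Dots are neighbours, coloured by the gene they lie near, and stars at 0 are the 8 genes themselves. The neighbours' median was 0.07 after TAC and 0.08 in sham hearts.

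Other genes of the members' families are given by count, and each count is to be read against the shares over all genes: 1.48% called by edgeR, 3.05% by DESeq2 and 14.8% at an unadjusted p under 0.05. Of 28 germ-cell and piRNA genes, 6 besides Ddx4 were tested after TAC and 0 passed in edgeR or DESeq2, with 2 at an unadjusted p under 0.05. These were Mov10l1 and Pld6. Mov10l1, a helicase related to piRNA processing that also has a cardiac form, was at 66.5 CPM in knockout and 51.2 CPM in wild-type TAC hearts (log2 fold change 0.38, edgeR adjusted p = 0.186). Pld6 was at -1.06, on averages of only 0.39 CPM in knockout and 0.79 CPM in wild-type TAC hearts. Of 37 dynein-2 and intraflagellar transport genes, 35 besides Dync2h1 were tested. None passed in edgeR, 4 had an unadjusted p under 0.05, and DESeq2 called 2, Ift81 and Ift122. Ift81, a component of the transport trains that dynein-2 carries, averaged 92.5 CPM in knockout and 48.9 CPM in wild-type TAC hearts (log2 fold change 0.92, edgeR adjusted p = 0.092), and 150 CPM in knockout and 86.0 CPM in wild-type sham hearts. Ift122 was at -0.62 after TAC (adjusted p = 0.068). Against wild-type TAC 2 alone, Mov10l1 was at 0.55, Pld6 at -1.23, Ift81 at 0.98 and Ift122 at -0.48, and 0 genes of either list passed in edgeR, with 3 and 5 at an unadjusted p under 0.05. The median log2 fold changes after TAC were -0.01 in the germ-cell list and -0.06 in the ciliary list, against 0.00 over all genes.

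Of 25 zinc finger genes of chromosome 17, 23 besides Zfp871 were tested after TAC. The edgeR test called 0 of them and DESeq2 called 0, with 2 at an unadjusted p under 0.05 (14.8% over all genes), and their median was 0.07. Zfp13 was at -0.75 (edgeR adjusted p = 0.073) and Zfp870 at 0.23 (adjusted p = 0.295). Against wild-type TAC 2 alone they were at -0.48 and 0.16, and 0 of the 23 passed in edgeR, with 1 at an unadjusted p under 0.05. Of 1106 olfactory receptor genes, 988 were at 0 in all 14 libraries and 9 were tested. Olfr1034 averaged 4.03 CPM over the 14 libraries. None of the 8 other tested receptors passed in edgeR or DESeq2, and 0 had an unadjusted p under 0.05. Their median log2 fold change was 0.27 after TAC and 0.03 in sham hearts. After TAC, Olfr56 was at 1.09, Olfr267 at 0.93, Olfr1393 at 0.67 and Olfr78 at -0.32, against 0.64 for Olfr1034. In sham hearts these 4 were at -0.30, 1.00, 0.72 and 0.16. Olfr56 and Olfr267 averaged only 0.56 and 0.59 CPM in knockout TAC hearts.

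Markers of other heart cells were set beside both genotype comparisons. In sham hearts, the comparison that chose the genes, the median log2 fold change of knockout over wild type was -0.64 for smooth muscle markers, -0.42 for Schwann cell, -0.36 for erythroid, -0.31 for macrophage, -0.24 for endothelial, -0.24 for B cell and -0.20 for fibroblast markers, and 0.06 for cardiomyocyte markers. The summed levels overlapped between genotypes. Smooth muscle markers summed to 170 to 329 CPM in knockout sham hearts, against 196 to 418 CPM in wild-type sham hearts. Macrophage markers summed to 73.6 to 99.8 CPM in knockout sham hearts, against 98.0 to 117 CPM in wild-type sham hearts, and endothelial markers to 939 to 1216 CPM in knockout sham, against 1028 to 1504 CPM in wild-type sham hearts. After TAC, fibroblast markers summed to 1160 to 1377 CPM in knockout hearts, against 2203 and 1806 CPM in the libraries labelled wild-type TAC 1 and 2. Of the 6 fibroblast markers 2, Col1a1 and Col1a2, passed the edgeR test as lower, with or without the library labelled wild-type TAC 1. Macrophage markers summed to 105 to 136 CPM in knockout TAC hearts, against 168 and 132 CPM in the libraries labelled wild-type TAC 1 and 2, so wild-type TAC 2 alone lay inside the knockout range. Erythroid markers summed to 274 to 369 CPM in knockout TAC hearts, against 398 and 443 CPM in wild-type TAC 1 and 2, and endothelial markers to 1002 to 1387 CPM in knockout TAC hearts, against 1321 and 1381 CPM in wild-type TAC 1 and 2. Of the 4 macrophage, 3 erythroid and 5 endothelial markers 0 passed after TAC in edgeR or DESeq2, with 2, 2 and 0 at an unadjusted p under 0.05. Against wild-type TAC 2 alone edgeR called 0 of them, with 0, 1 and 0 at an unadjusted p under 0.05. The part of cell makeup in the levels of the 8 genes was not tested. In bulk tissue, fewer cells of a type and less RNA per cell cannot be told apart.

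Likeness across the 14 libraries is a description, since the choice of the genes made the sham groups differ for all 8. Over the 28 pairs of members, Pearson's r of log2 CPM had a median of 0.67 and ranged from 0.15 to 0.83. After each group's mean was subtracted, the median was 0.04, with a range from -0.83 to 0.56. The gene most like each member was found in the same way, over 14 libraries that also differ in depth. Zfp871 was most like Cep350, a centrosomal protein gene (r = 0.96), Dync2h1 most like Dmd, which encodes dystrophin (r = 0.92), and Ddx4 most like Usp34, a deubiquitinase gene (r = 0.92). Fam81a was most like Rspry1 (r = 0.95), Armh4 most like Tfpi, the tissue factor pathway inhibitor (r = 0.94), and D3Ertd751e most like Casp8ap2 (r = 0.92). Olfr1034 was most like Csnk2a1, a casein kinase subunit (r = 0.91), and Gm15737 most like 4932438A13Rik (r = 0.90). The mean profile of the 8 was most like Csnk2a1 (r = 0.96) and Ecpas (r = 0.95).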

How the data were processed

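Per the labels' protocols, messenger RNA of heart tissue was enriched on oligo-dT and made into strand-specific libraries. The deposited tables hold raw counts of reads per gene, per the file headers split into coding and untranslated parts and ambiguous reads. Picard 2.10.3, STAR 2.4.2a, bcl2fastq 2.17.1.14 and the builds GRCm38 and mm10 are listed in the submitters' processing notes, without roles. Which annotation and strand option the counter used was not given in the sources used here. Genes that overlap only an opposite-strand gene had 0.486% ambiguous reads, against 30.9% for those that overlap only a same-strand gene, so counts were treated as strand-aware.

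Reads outside annotated features and ambiguous reads were left out. Of 51912 identifiers, 51633 matched GENCODE M21 by identifier without version. Genes were filtered by filterByExpr (minimum count 10), which left 15651 tested. They were scaled by TMM and fitted with edgeR 4.0.16 in R 4.3.3, with 1 coefficient per group over 14 libraries. Adjusted p-values are Benjamini-Hochberg over all tested genes, with a threshold of 0.05, and the biological coefficient of variation was 11.8%. The script was tested on simulated data. DESeq2 1.42.0, other scalings and filters, coding counts and left-out libraries were alternatives. Levels are CPM. Correlations used log2 CPM with a prior count of 2. Named genes were the 8, their nearest and overlapping genes, the most correlated genes and up to 4 genes of smallest p in each list. Members and lists were chosen with earlier results of these data known.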

Additional observations from a re-analysis of the deposited data

Results flagged for a closer look

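In 1 of 27 gene and group values tested for a library standing apart (where chance gives about 1 in 20), the gap was large for its group: Zfp871 in wild-type sham hearts, where wild-type sham 2 had 16.3 CPM and the other 3 libraries had 13.4 to 13.8 CPM. The gap made up 0.842 of the group's range, more than Dixon's critical value for 4 samples.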

How the results depend on the processing

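The sign of each member's fold change between genotypes after TAC held under every alternative with a value (175 values), while counts of calls moved. After TAC, 232 genes passed, against 525 with no filter on low counts, 60 with only the groups compared, 120 with 10-week libraries alone, 145 on coding-part counts, 478 with DESeq2 and 46 to 359 with 1 library left out (46 without wild-type TAC 1, 359 without wild-type TAC 2, 152, 94 and 149 without knockout TAC 1, 2 and 3). Members called were 1, against 2 with no filter (Armh4 added, adjusted p = 0.0237), 0 with only the groups compared, 0 on coding-part counts (each 3 at an unadjusted p under 0.05 in edgeR) and 0 to 1 with 1 library left out (2 to 4 at an unadjusted p where 0 passed). Zfp871 lost its call with only the groups compared (adjusted p = 0.106), on coding-part counts (0.154) and without knockout TAC 1 (0.0557) or 2 (0.0798), besides the wild-type TAC libraries. In sham hearts 139 genes passed, against 387 with no filter, 0 with 10-week libraries alone, 92 on coding-part counts, 608 with DESeq2 and 8 to 531 with 1 library left out (8 without wild-type sham 3, 531 without wild-type sham 1). For TAC against sham, 4274 passed, against 1789 with 10-week libraries alone, 2833 on coding-part counts, 260 with the covariate and 2506 to 4341 with 1 library left out, and 4 members passed, against 0 with the covariate and 3 to 5 with 1 library left out. Averaged TAC effects that turned sign were Ddx4 (-0.22 to 0.44 with 1 library left out, lowest without wild-type TAC 1, -0.51 with the covariate), Olfr1034 (-0.30 on coding-part counts, -0.02 and -0.0055 without wild-type sham 2 and 4, -0.21 without wild-type TAC 2 and 0.21 without wild-type TAC 1, -0.03 and -0.0037 without knockout TAC 2 and 3) and Dync2h1 (0.054 with 10-week libraries alone, 0.10 with the covariate). None of these was past the threshold. Zfp871 lost its TAC call with 10-week libraries alone (adjusted p = 0.0763). The causes were not tested. Gm15737 had too few coding counts for a value. No paired analysis was possible because replicate numbers were given in order of deposit and only name the libraries; age, which differs within the sham groups, was taken up by the 10-week libraries alone. With 1 wild-type TAC library, that library is assumed to vary like the other groups. Depth limits Ddx4 and Gm15737, which had 5 to 36 counts per library.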
